A study of Caenorhabditis elegans with 2 samples.

Results

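The 9 GATA factor genes elt-1, elt-2, elt-3, elt-4, egl-18, elt-6, elt-7, end-1 and end-3 were examined for binding of MXL-3, a Max-family transcription factor, among 19973 protein-coding genes of Caenorhabditis elegans. They were taken by name as the GATA genes of gut and epidermis. Each gene was given a window from 5000 bp upstream of its first annotated transcript start to the gene end, and every peak summit inside it was read from 4 deposited lists. The lists came from chromatin immunoprecipitation sequencing with an anti-GFP antibody on whole L4 larvae of pooled sexes, 48 hours old, grown from starved L1 larvae after bleaching. All larvae were of strain OP745, which carries the integrated transgene wgIs745, mxl-3 tagged at its C terminus with TY1, EGFP and 3xFLAG, together with unc-119(+), in an unc-119 (tm4063) background. There were 2 biological replicates of this 1 group, with no untagged or second condition among the lists, so the comparisons are between positions of the genome. Chromatin came from the entire animal, and a summit at a gut or epidermal gene cannot be assigned to a tissue.

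GATA factors are zinc finger proteins named for the short GATA sequence they bind. In the worm embryo end-1 and end-3 start the endoderm programme, and elt-2 with elt-7 then takes over and holds the intestine in its differentiated state for life. In the epidermis elt-1 specifies the tissue, elt-3 acts downstream of it in the differentiating cells, and egl-18 with elt-6 keeps the seam cells, the epidermal stem cells of the larva. The gene elt-4 encodes a very small GATA protein expressed in the gut, for which no essential role is known. Max-family proteins pair through their helix-loop-helix zipper domain and are known for binding the E-box CACGTG, and MXL-3 is known for restraining lysosomal lipase genes in fed animals.

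MXL-3 peaks that were kept by the authors' threshold on the irreproducible discovery rate (IDR) lay in the windows of elt-2, elt-3 and end-3, and in none of the other 6. These were 3 of 9 genes (33.3%, exact 95% interval 7.49 to 70.1%), where 24.7% of all protein-coding genes had an IDR summit in a window drawn the same way. The interval includes the share of all genes, so the count is no result about the GATA genes as a set. The windows held 4 IDR summits, of which 3 were on X. Of the 3 member genes on X, 2 had an IDR summit (66.7%, exact 95% interval 9.43 to 99.2%). That interval includes the share of all protein-coding genes on X, 35.2%. Only the elt-2 and elt-3 summits had their own gene as the nearest start. The authors' signal value, whose scale the sources used here do not define, ran from 91.1 to 1445 in the IDR list with a median of 138, and the member summits ranked 1959, 2264, 3362 and 3639 of 3935. They were thus moderate to weak members of that list.

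The sequences at these 4 summits are printed because none holds the E-box CACGTG. They are the plus strand of WBcel235 (ce11), 5′ to 3′, from the RefSeq genome, each reaching 100 bp to either side of the summit, apart from the last, which stops before the transcript of aip-1. All 4 summits are intergenic or intronic, and the first elt-3 sequence runs into exons of the non-coding RNA genes K02B9.7 and K02B9.8. Capitals mark every E-box of the form CANNTG, every TGATAA, the core of the site that worm GATA factors bind, and in the first also a perfect palindrome, a stretch equal to its own reverse complement. Both strands were searched.

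elt-2 promoter, chrX:10480673-10480873: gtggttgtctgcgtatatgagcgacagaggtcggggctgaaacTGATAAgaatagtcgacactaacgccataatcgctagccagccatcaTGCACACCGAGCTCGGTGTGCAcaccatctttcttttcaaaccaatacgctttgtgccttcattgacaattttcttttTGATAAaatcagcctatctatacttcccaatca
elt-3 intron, first summit, chrX:13936831-13937031: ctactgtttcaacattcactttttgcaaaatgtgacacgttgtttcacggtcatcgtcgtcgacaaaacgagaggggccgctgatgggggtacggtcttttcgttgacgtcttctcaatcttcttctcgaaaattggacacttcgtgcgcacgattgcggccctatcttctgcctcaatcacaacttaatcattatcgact
elt-3 intron, second summit, chrX:13937929-13938129: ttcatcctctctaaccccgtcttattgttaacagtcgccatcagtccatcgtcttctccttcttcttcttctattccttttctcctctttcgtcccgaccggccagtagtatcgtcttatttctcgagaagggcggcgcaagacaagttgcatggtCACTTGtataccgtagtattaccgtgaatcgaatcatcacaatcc
upstream of aip-1, in the end-3 window, chrV:14012170-14012332: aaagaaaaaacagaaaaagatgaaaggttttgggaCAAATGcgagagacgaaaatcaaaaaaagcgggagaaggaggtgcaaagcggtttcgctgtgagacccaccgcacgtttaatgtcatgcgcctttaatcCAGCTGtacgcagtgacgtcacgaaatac

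The elt-2 gene, which encodes the main GATA factor of the larval and adult intestine (WBGene00001250, X 10481240 to 10483441, plus strand), had its IDR summit in intergenic sequence at 10480773, 467 bp upstream of its only annotated start. The signal was 101 in the IDR and pooled lists, rank 3362. In replicate 1 the matching summit lay 19 bp away with a signal of 51.5 and rank 2690, and in replicate 2 it lay 49 bp to the other side with a signal of 48.1 and rank 4785. The peak therefore stood among the 3935 highest of replicate 1 and outside that number in replicate 2. Signals are on a scale of their own in each list, so replicates are compared by rank.

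This elt-2 summit had no CANNTG within 100 bp and 2 copies of TGATAA, centred 54.5 bp before and 70.5 bp after it. TGATAA lay within 100 bp of 27.6% of all IDR summits. At the summit itself stood the palindrome TGCACACCGAGCTCGGTGTGCA of 22 bp, from 10480763 to 10480784, its centre 0.5 bp from the summit. A perfect palindrome of at least that length was present within 100 bp of 3 of 3935 IDR summits (0.0762%) and of 24 of the 30000 pooled summits (0.08%). The median of the longest palindrome was 8 bp over IDR summits and the maximum 24 bp. The palindrome was noticed after the sequence was seen, and it is a description of this site alone.

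A second peak in the elt-2 window, at 10477789, came just short of the IDR list. Its summit lay 3451 bp upstream of elt-2 in the 3′ UTR of C39B10.7, with a pooled signal of 89.4 and rank 4059, where the weakest IDR peak had 91.1. It ranked 8345 in replicate 1 (signal 28.6) and 3089 in replicate 2 (62.5), so the replicates differed in the order opposite to that of the promoter summit. The other pooled summits of the window were at -1868 bp with a signal of 55.6 and in elt-2 coding sequence at 1663 bp with 38.2.

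The elt-3 gene, an epidermal GATA factor gene (WBGene00001251, X 13934874 to 13941216, plus strand), had both its IDR summits inside the gene, 1098 bp apart. The first, at 13936931, was the strongest of any member, with a pooled signal of 138 and rank 1959. It lay in an intron 2057 bp downstream of the first annotated start and 1812 bp upstream of the nearest internal start. Its replicate values were a signal of 34.2 and rank 5669 in replicate 1 and a signal of 101 and rank 1293 in replicate 2. The strongest member summit was thus high in replicate 2 and only moderate in replicate 1. No CANNTG and no TGATAA lay within 100 bp of it. The non-coding RNA gene K02B9.8 begins 57 bp downstream of this summit, and replicate 2 had a further summit near there, with a signal of 53.5 and rank 3978, which had no match in replicate 1 and a pooled signal of 39.8.

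The second elt-3 summit, at 13938029, was more even between replicates. Its pooled signal was 95.6, rank 3639, with a signal of 46 and rank 3281 in replicate 1 and a signal of 53.4 and rank 4002 in replicate 2. It lay in an intron 3155 bp downstream of the first start and 714 bp upstream of an internal start. The sequence had 1 E-box of the class CAAGTG, read there as CACTTG, centred 58.5 bp from the summit.

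Below the IDR threshold elt-3 had 6 further pooled summits, with signals from 35.2 to 69.5. Those at 13938769 (69.5) and 13939770 (59.2) lay in coding sequence within 44 bp downstream of internal starts. In replicate 1 the former had rank 18200 and the latter no summit within 100 bp, and in replicate 2 they had ranks 6370 and 5251. Of the 8 pooled summits of elt-3, replicate 1 matched 4 and replicate 2 matched 7.

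The end-3 gene, an early endoderm GATA factor gene (WBGene00001311, V 14014695 to 14015980, plus strand), had an IDR summit in its window that stood at other genes. The summit, at 14012270, was 2425 bp upstream of end-3, with the whole of aip-1 between them. It lay 63 bp upstream of the start of aip-1, which encodes an AN1-type zinc finger protein induced by arsenite, and 218 bp upstream of the divergent gene ddx-17, a DEAD-box helicase gene. The pooled signal was 128, rank 2264, with a signal of 51 and rank 2736 in replicate 1 and a signal of 77.2 and rank 2134 in replicate 2. It was the only member summit among the 3935 highest peaks of both replicates. Within 100 bp it had 2 CAGCTG sites, 1 of them beyond the printed sequence, and 1 CAAATG, the nearest centred 36.5 bp away.

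The rest of the end-3 window held 5 weaker pooled summits, and none lay between aip-1 and end-3. Their signals were between 32.6 and 55.6, and all lay within ddx-17 or aip-1. The last 1051 bp before end-3, its promoter by position, had no summit in the pooled list. Replicate 1 alone listed a summit in the 3′ UTR of aip-1, 1132 bp upstream of end-3, with a signal of 14.6, rank 29956. That promoter has 3 copies of CACGTG, at -805, -425 and -379 bp from the end-3 start, each at least 490 bp from any pooled summit.

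**Figure D1:**
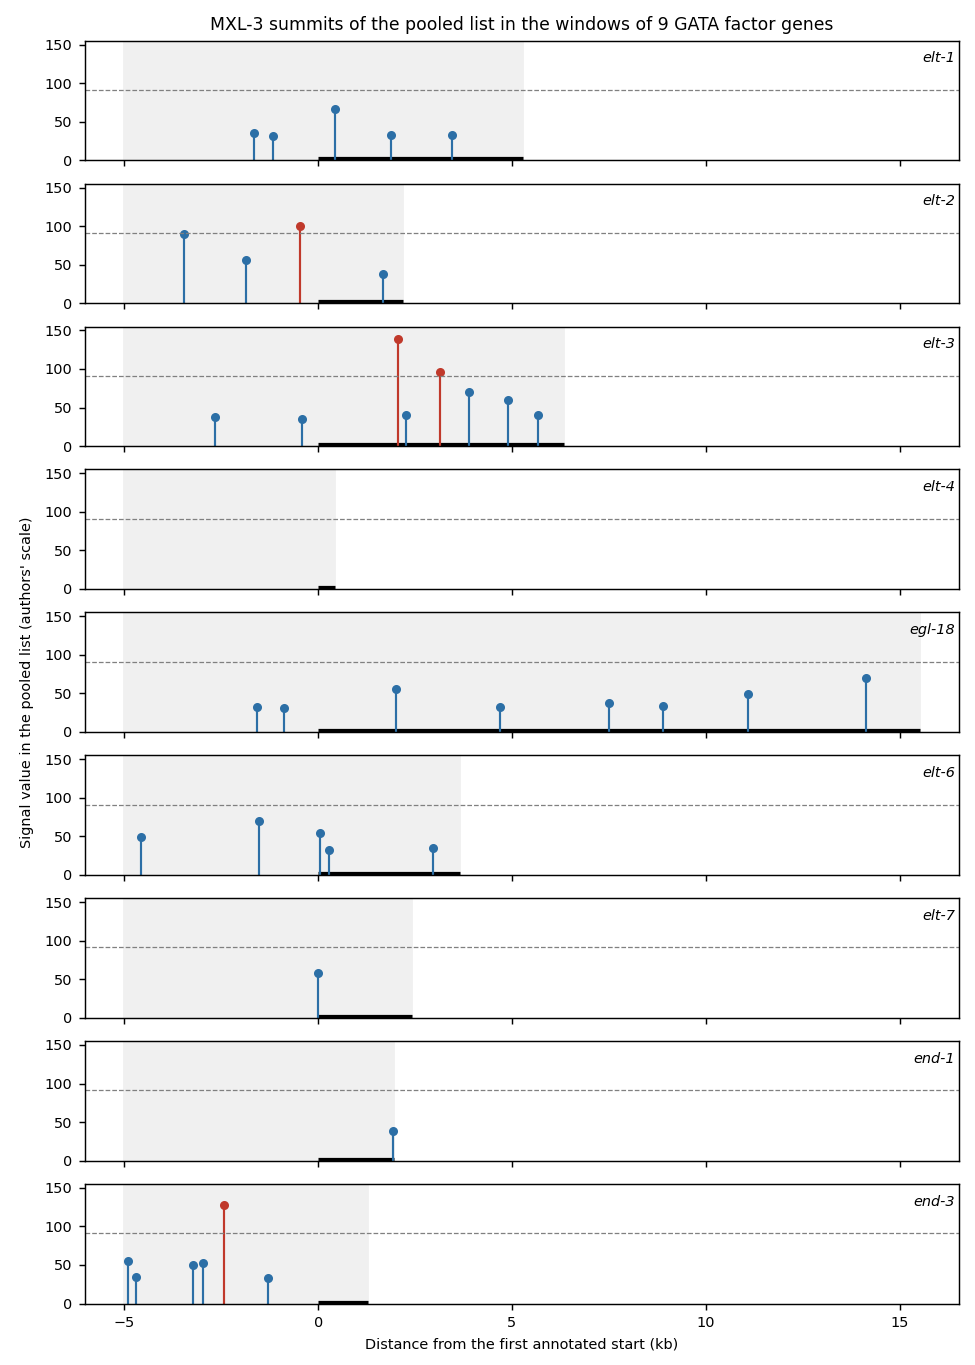
Summits of the pooled list in the window of each of the 9 GATA factor genes (grey band; black bar, the gene), by distance from the first annotated start in kb, with the authors' signal value as height. Red marks summits in the IDR list and blue the others, and the dashed line is the lowest IDR signal, 91.1. The 4 red summits stand in the windows of elt-2, elt-3 and end-3, that of end-3 being just upstream of aip-1, and elt-4 has none of either colour.

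The 6 genes without an IDR summit had weaker summits below the threshold or, at elt-4, no summit at all. At the 4 member IDR summits the −log10 of the authors' q-value was 2.58 to 3.67. At the highest pooled summit of the other genes it was 1.13 for egl-18 and elt-6 and 0.988 for elt-1. For elt-7 it was 0.654 and for end-1 0.192. The highest signals among the 6 genes were those of egl-18 and elt-6, which lie 137 bp apart on IV and whose windows overlap by 4864 bp. The strongest summit of both was 1 shared peak, counted in both because their windows overlap. It lay at 1916445, in an egl-18 intron and 1532 bp upstream of elt-6. Its pooled signal was 69.9, rank 6027. Replicate 1 had a summit 86 bp away with rank 5198 (signal 35.7), and the nearest of replicate 2, with rank 5430 (44.6) at 1916559, was more than 100 bp off and so counted as no match.

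The other egl-18 summits were weaker. The gene (WBGene00001186, IV 1902322 to 1917840, plus strand) had 8 pooled summits with signals from 31.6 to 69.9 in the widest window of the 9 genes, 20519 bp. An intronic summit at 1904338 had a signal of 56.1 and ranked 17791 in replicate 1 and 5764 in replicate 2. With RefSeq's gene bounds, which start egl-18 at 1913446, the window held 4 pooled summits, the strongest of them included. At elt-6 (WBGene00001253, IV 1917977 to 1921643, plus strand) a summit lay 36 bp downstream of the start with a signal of 54.6. It ranked 7381 in replicate 2 (37.7) and had no summit within 100 bp in replicate 1.

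At elt-1, the gene that specifies epidermis (WBGene00001249, IV 9614995 to 9620280, plus strand), the highest of 5 pooled summits was intronic at 9615435, 440 bp downstream of the first start. It had a signal of 66.6 and rank 6570, with rank 12830 in replicate 1 (23.5) and rank 6050 in replicate 2 (41.9). The remaining 4 summits had signals from 31.5 to 35.5 and were each matched in 1 replicate only. The nearest IDR summit was 16333 bp outside the window.

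The gut genes elt-7, end-1 and elt-4 had at most 1 pooled summit each. A single pooled summit marked elt-7, the partner of elt-2 (WBGene00015981, V 4770670 to 4773086, plus strand), 6 bp inside its 5′ UTR with a signal of 57.7 and rank 8640. The replicate summits, of ranks 9738 (26.7) and 18414 (24.3), lay 89 bp before and 75 bp after it, thus 164 bp apart. For end-1, which acts beside end-3 (WBGene00001310, V 13985128 to 13987074, plus strand), the only pooled summit was in its 3′ UTR with a signal of 38.6, rank 19370. It was matched in replicate 2 (25.2, rank 17127) and not in replicate 1. No list had a summit in the window of elt-4 (WBGene00001252, X 10475527 to 10475959, plus strand), which ends 281 bp before the elt-2 window begins. A pooled summit was present in the windows of 8 of 9 members, against 78.3% of all protein-coding genes.

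Set in order of the highest pooled signal in each window, the genes were elt-3 (138), end-3 (128), elt-2 (101), egl-18 and elt-6 (69.9, the same summit), elt-1 (66.6), elt-7 (57.7), end-1 (38.6) and elt-4 (no summit). The pooled list gives each peak no error of its own. Between replicates the order of neighbours changed, with the first elt-3 summit behind those of elt-2 and end-3 in replicate 1 and ahead of both in replicate 2. The median over the 9 genes was 69.9 and that over all protein-coding genes 50.9. The windows had a median length of 7417 bp against 7027 bp. A signal as high as that of elt-3 was reached by 14% of all genes, that of end-3 by 15.8%, that of elt-2 by 22% and that of elt-7 by 42.8%.

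**Figure D2:**
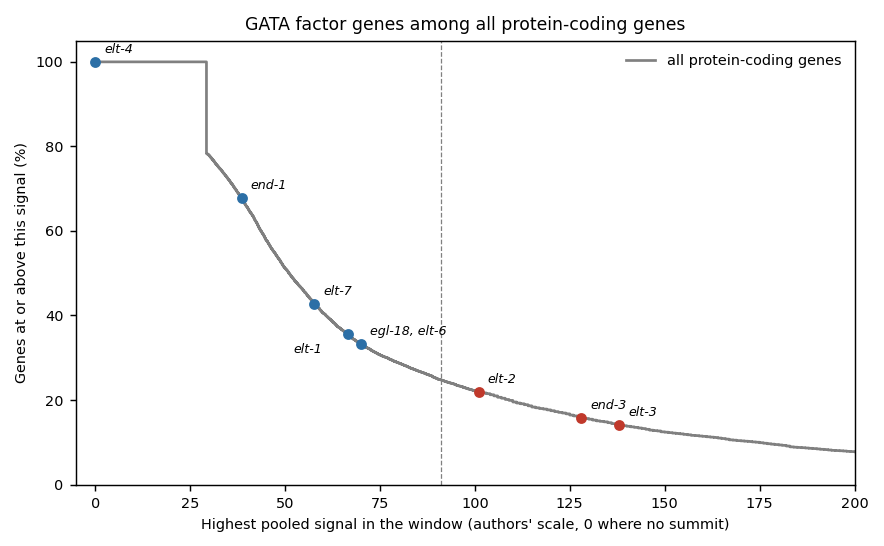
Percentage of all 19973 protein-coding genes (grey line) whose highest pooled signal, in the authors' units, is at or above the value on the horizontal axis, with the 9 GATA factor genes as points (red, with an IDR summit; blue, without). The dashed line is the lowest IDR signal. The genes lie between elt-4, with no summit, and elt-3, whose signal 14% of genes reach.

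The member windows together covered 79236 bp and held 5.05 IDR summits per 100 kb, against 4 in the windows of all protein-coding genes and 5.44 over the X chromosome. The pooled list had 30.9 summits per 100 kb in the windows of all genes and 35.1 over the X chromosome. The member windows held 36 of its summits, or 45.4 per 100 kb, a difference that was not tested. Most of the 32 that missed the IDR list were weak, with a median signal of 38.4. Of the 36, 13 lay in introns, 9 in intergenic sequence, 8 in coding sequence, 3 in exons of non-coding transcripts or other exons and 3 in UTRs.

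The replicates matched these summits about as often as pooled summits elsewhere. A summit within 100 bp was listed in both full replicate lists for 14 of the 36 pooled summits (38.9%, exact 95% interval 23.1 to 56.5%), against 44% of all pooled summits, a share inside that interval. Replicate 1 matched 20, replicate 2 matched 26 and 4 had a match in neither. All 4 IDR summits were matched in each full list, as were 96.4% of IDR summits genome-wide. Among the 3935 highest peaks of each replicate, 1 of the 4 was matched in both (25%, 0.631 to 80.6%), against 71.1% of IDR summits genome-wide. With 4 summits the interval includes the genome-wide share. Each replicate alone placed 3 summits among its 3935 highest peaks in these windows, again those of elt-2, elt-3 and end-3, but at different sites for 2 of the genes. For elt-2 it was the promoter summit in replicate 1 and the summit in C39B10.7 in replicate 2, and for elt-3 the second summit in replicate 1 and the first in replicate 2.

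**Figure D3:**
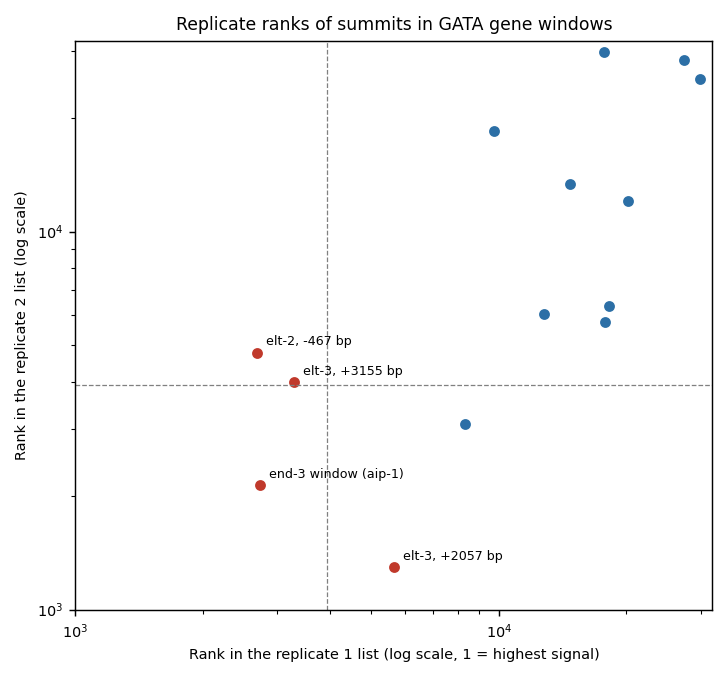
Ranks in replicate 1 (horizontal) and replicate 2 (vertical), both on log scales with 1 as the highest signal, of the 14 pooled summits in GATA gene windows that had a summit within 100 bp in each replicate. Red marks the 4 IDR summits and blue the others, and dashed lines mark rank 3935. The summit at aip-1 alone lies within that rank in both.

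CACGTG was absent from the IDR summits in the GATA gene windows. It lay within 100 bp of 0 of 4 (exact 95% interval 0 to 60.2%), against 15.9% of all IDR summits, a difference that 4 summits cannot resolve. Any CANNTG was present at 2 of 4, against 67.2%, in the classes CAAGTG at elt-3 and CAGCTG and CAAATG at aip-1. TGATAA was present at 1 of 4. Over the 36 pooled summits CACGTG was present at 3 (8.33%, 1.75 to 22.5%, against 7.97% of all pooled summits), any CANNTG at 24 (66.7%, against 65.7%) and TGATAA at 12 (33.3%, 18.6 to 51%, against 20.3%). CANNTG and TGATAA can share the letters TG where the first runs into the second. Each of these genome-wide shares lay inside the interval of the members' share.

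The 3 summits with CACGTG were all below the threshold, at elt-6, egl-18 and elt-3. They are shown, with the hexamer in capitals and 12 bases to each side on the plus strand of WBcel235, because they are the copies of the Max-family hexamer in these windows that lie within 100 bp of a summit of the pooled list. A further egl-18 copy lay 86 bp from a weak summit of replicate 1 (signal 19, rank 19472) and 146 bp from the nearest pooled summit.

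elt-6, at the start, chrIV:1917951-1917980: aaaacaacgtcaCACGTGatttacagatga
egl-18, upstream, chrIV:1900646-1900675: ctctaaaaacgtCACGTGgcctacttttca
elt-3, coding sequence, chrX:13940449-13940478: caaattgcaaaaCACGTGagacgacgctgt

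The elt-6 hexamer begins 14 bp before the annotated start and is centred 47.5 bp from the summit of signal 54.6 described above. That of egl-18 was 77.5 bp from a summit with a signal of 32.9, rank 25365, and that of elt-3 was 94.5 bp from a summit with a signal of 40.2, rank 17935. All 3 summits were matched in replicate 2 and none in replicate 1.

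Most copies of the hexamer had no pooled summit within 100 bp, in these windows as in the genome. The 9 windows held 18 distinct copies of CACGTG, 8 of them in that of egl-18, and 8 genes had at least 1, with elt-4 the exception. Of the 18 sites, 3 (16.7%, 3.58 to 41.4%) were within 100 bp of a pooled summit, against 14.6% of the 17729 sites on the 6 nuclear chromosomes. No site was within 100 bp of an IDR summit, against 3.86% genome-wide, a difference that was not tested. The elt-1 promoter has a copy 50 bp before the first start, 488 bp from the nearest pooled summit.

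Other genes of the same pathways, in lists chosen with earlier results of these data known, were read with the same window. Of the remaining GATA genes of the endoderm pathway, med-1 had an IDR summit at -4989 bp (signal 122), which was nearest to T24D3.2, and med-2 had no pooled summit. Among 16 genes of endoderm specification, upstream of end-1 and end-3, 10 had an IDR summit (62.5%, against 24.7% of all protein-coding genes). The strongest were at lit-1, the Nemo-like kinase gene of the Wnt pathway, with a signal of 286 in its 5′ UTR and 2 CACGTG sites, gsk-3 with 282, sptf-3 with 277 and skn-1, the gene of the maternal factor that starts the endomesoderm programme, with 232. The sptf-3 summit had 1 CACGTG, and those for gsk-3 and skn-1 had none. The summit for gsk-3 lay nearer to Y18D10A.4. The skn-1 window held 7 IDR summits, and that strongest one was matched in replicate 1 (rank 601) and not in replicate 2. The median of the highest pooled signal over the list was 101, in windows with a median length of 10011 bp.

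Intestinal differentiation genes, many of them known targets of ELT-2, had an IDR summit at 16 of 30 (53.3%), with a median highest pooled signal of 94.8. The strongest were nhx-2, a sodium/proton exchanger gene, with 295, rme-1, an endocytic recycling gene, with 205, spl-1 with 176 and let-767 with 148. The summits for spl-1 and let-767 lay nearer to rps-24 and trmt-10C.2. The nhx-2 summit had 1 CACGTG and 2 TGATAA, and that of rme-1 had 2 TGATAA and no CACGTG. Those of spl-1 and let-767 had neither, and TGATAA lay within 100 bp of 27.6% of all IDR summits. Epidermal regulators and differentiation genes had an IDR summit at 16 of 27 (59.3%), with a median highest pooled signal of 101. They were led by vab-10, a spectraplakin gene of epidermal attachments, with 278, the moulting regulator gene nhr-23 with 232, the heterochronic factor gene lin-29 with 205 and the collagen gene dpy-10 with 193, all 4 without CACGTG. The dpy-10 summit had 2 TGATAA, and those of vab-10, nhr-23 and lin-29 had none. The median windows of the intestinal and epidermal lists, 8274 and 9699 bp, were like that of the endoderm list longer than the 7027 bp of the median gene. In each of these 3 lists the strongest IDR summit of some further genes also lay nearer to the start of another gene. A summit counted in a window is thus not assigned to that gene. The shares of all 3 lists stand beside the 24.7% of all genes without a test. Because the lists were chosen with earlier results of these data known, no excess can be read from them.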

How the data were processed

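Per the listings deposited with each replicate, the authors called peaks against a control in each replicate by itself and in both together (the pooled list), and derived the IDR-thresholded list from the pooled one, all on ce11. The authors' narrowPeak lists hold a signal value, used here to rank peaks within a list, and the −log10 of a q-value. The latter was used for ties and is quoted for some member summits. The sources used here give neither the caller nor the aligner, and leave the scale of the signal undefined. Outside the IDR list every list had 30000 entries, many of them background, so presence there is weak evidence. All 3935 IDR peaks were the highest of the pooled list. Read totals were not used here, so the depth is unknown, and intervals (exact Clopper-Pearson) cover counting error only.

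Peak positions lay within the RefSeq WBcel235 chromosomes. Gene models came from Ensembl release 115, and 5 of the 9 genes had the same bounds in RefSeq. Positions are 1-based, and a summit is column 2 plus column 10, plus 1 for the 1-based position. Ranks follow the signal. Summits within 100 bp counted as matched, and 10 CANNTG classes and TGATAA were searched within 100 bp of summits on both strands. No test was made: the design has 1 group, and counts stand beside the same count over all genes or summits. The members and gene lists were chosen with earlier results of these data known. The text names all 9 genes, the genes nearest to their summits, and up to 4 genes of each list by IDR signal. Window and motif code was tested on simulated data. Alternatives were other windows, peak sets, motif windows, matching distances and assignment to the nearest start. Computation used Python 3.11.15 with scipy 1.17.1, pandas 2.3.3 and numpy 2.4.6, and plots matplotlib 3.10.9.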

Additional observations from a re-analysis of the deposited data

How the results depend on the processing

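The number of GATA genes with an IDR summit, 3, was 2 with a reach of 2000 bp, with a promoter window (1000 bp upstream to 200 bp downstream of any start) and with summits assigned to the nearest start, where end-3 dropped out, and 1 in the 1967 strongest IDR peaks, where elt-3 was left. The 4 summits became 2 in the promoter window and 1 in the 1967 strongest peaks, and each replicate alone gave 3 genes and 3 summits. CACGTG was at 0 of these summits in every alternative run. Any CANNTG, at 2 summits, was at 1 with a reach of 2000 bp, in the promoter window, with the nearest start and with a motif window of 50 bp, at 0 in the 1967 strongest peaks, at 3 with a motif window of 200 bp, and at 1 without replicate 1 and 2 without replicate 2. The 1 summit matched in both replicates is that of aip-1: the count was 0 with a reach of 2000 bp, in the promoter window, in the 1967 strongest peaks and with the nearest start, and 4 in the full replicate lists. The share of all genes, 24.7%, was 17.1% with a reach of 2000 bp, 11.3% in the promoter window, 14% in the 1967 strongest peaks, 13.5% with the nearest start and 24.1 to 24.8% with each replicate left out. Smaller windows and lists can only lower counts of genes and summits. A narrower motif window can only lower a motif count and a wider one only raise it. Full replicate lists can only raise the count of matches. The cause of the other shifts was not tested. No paired analysis was possible because there is only 1 group. With 4 summits, shares cannot be told from their backgrounds.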
